A study of Homo sapiens with 27 samples.

Results

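The genes described here are 58 genes of mitosis and of the kinetochore, measured by RNA-seq and by ribosome profiling (Ribo-seq) in 5 states of IMR90, a diploid fibroblast line from human fetal lung. They were chosen by symbol from the 60534 gene identifiers that all libraries shared, of which 19307 were protein coding, by a rule that names symbols alone and was set with earlier results of these data known. All 58 were found. The filter on low counts kept 57 of them in each assay, and NUSAP1, a protein that bundles spindle microtubules, was left out in both.

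RNA-seq measured the mRNA of each gene, and Ribo-seq counted the footprints left when RNase digests mRNA around bound ribosomes, which depend on the mRNA level and on the ribosomes it carries. The 27 libraries came from cycling cells (2 RNA-seq and 3 Ribo-seq), cells made quiescent by contact inhibition (3 and 3), cells senescent after ionizing radiation (3 and 3), cells senescent after etoposide (3 and 3) and cycling cells treated with thapsigargin (2 and 2). Radiation was given at 15 Gy and the cells were harvested after 10 days, and etoposide, a poison of topoisomerase II that leaves DNA breaks, was applied 3 times at 50 µM within 10 days. Thapsigargin blocks the calcium pump of the endoplasmic reticulum and was used at 25 nM for 3 h. The labels give a wild-type genotype for all libraries except the thapsigargin ones, for which they give none, and every state was of this one cell line with no added gene or deletion named. The thapsigargin cells were kept in a medium described without the antibiotic and antimycotic of the other states, and a characteristic on the thapsigargin RNA-seq libraries names protected fragments, so their titles decided the assay. Nothing in the labels says that the replicates were separate cultures, so the p-values measure the spread between these libraries, which may be technical.

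Mitosis is driven by the kinase CDK1 with cyclin B, and chromosomes attach to spindle microtubules through the kinetochore, a protein complex built on the CENPA-containing chromatin of the centromere. Unattached kinetochores feed the spindle assembly checkpoint, which blocks CDC20 and so keeps the anaphase-promoting complex from starting anaphase. The genes for these proteins are transcribed mainly in G2 and mitosis under FOXM1, MYBL2 and the MuvB complex, and in cells that have left the cycle the DREAM complex represses them, in part through a promoter element called the CHR (cell cycle genes homology region).

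The promoters of 49 of the 58 genes were present in RefSeq's sequences for GRCh38.p14, each as a window of 300 bases from 250 before to 50 after the start of the gene. Those of 4 genes are shown because they belong to the gene with the largest drop in mRNA after irradiation (CENPA) and to genes at the centre of the results below (CDK1, CCNB1 and CDC20). All are on the plus strand and are printed 5′ to 3′, with matches to the CHR and to the CCAAT box in capitals. They lie at chr2:26785806-26786105, chr10:60778081-60778380, chr5:69166900-69167199 and chr1:43358731-43359030, and the genes themselves span chr2:26786056-26794589, chr10:60778331-60794852, chr5:69167150-69178245 and chr1:43358981-43363203.
CENPA: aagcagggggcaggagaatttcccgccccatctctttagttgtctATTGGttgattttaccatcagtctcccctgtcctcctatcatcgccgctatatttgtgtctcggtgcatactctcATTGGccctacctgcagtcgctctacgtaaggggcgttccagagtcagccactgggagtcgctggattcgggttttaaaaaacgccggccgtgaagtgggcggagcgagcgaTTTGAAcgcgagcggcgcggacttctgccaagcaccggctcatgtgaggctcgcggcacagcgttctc
CDK1: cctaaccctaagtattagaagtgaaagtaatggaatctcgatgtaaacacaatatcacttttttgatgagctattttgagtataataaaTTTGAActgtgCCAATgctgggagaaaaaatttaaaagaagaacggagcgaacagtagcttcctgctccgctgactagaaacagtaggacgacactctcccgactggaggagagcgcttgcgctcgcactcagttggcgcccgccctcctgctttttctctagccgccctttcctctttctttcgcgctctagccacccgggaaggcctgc
CCNB1: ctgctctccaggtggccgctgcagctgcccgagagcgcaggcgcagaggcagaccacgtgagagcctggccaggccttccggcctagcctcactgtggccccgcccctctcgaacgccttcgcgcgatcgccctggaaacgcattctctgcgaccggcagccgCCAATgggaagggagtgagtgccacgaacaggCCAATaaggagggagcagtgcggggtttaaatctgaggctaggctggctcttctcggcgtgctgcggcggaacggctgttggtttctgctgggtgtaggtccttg
CDC20: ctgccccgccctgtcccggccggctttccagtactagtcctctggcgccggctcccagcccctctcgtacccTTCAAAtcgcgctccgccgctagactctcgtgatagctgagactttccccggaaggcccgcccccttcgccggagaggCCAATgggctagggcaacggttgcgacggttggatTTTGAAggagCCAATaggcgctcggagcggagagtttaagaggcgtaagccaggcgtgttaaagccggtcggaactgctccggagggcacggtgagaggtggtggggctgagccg
The CHR was searched as the letters TTTGAA, and in a second form as TTCGAA, and the CCAAT box by the letters of its name. An E2F site was searched as TTTCGCGC, and in a second form as TTTGGCGC. Each was read on both strands, so that the reverse complement of CCAAT is printed as ATTGG, and none of these motifs contains another. Counted from the start of the gene, the CENPA window held a CHR at -18 and CCAAT boxes at -205 and -130. The CDK1 window held a CHR at -161, a CCAAT box at -150 and an E2F match at 20. The CCNB1 window held CCAAT boxes at -87 and -55 and no match to the CHR forms searched, which does not show that it lacks a CHR. The CDC20 window held CHR matches at -178 and -65 and CCAAT boxes at -100 and -55.

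Among the 49 windows, 35 held a match to the CHR forms searched (71.4%), against 16.6% of all 27305 promoters listed and 13.5% of those of protein coding genes. A CCAAT box was present in 35 (71.4%), against 35.7% of all promoters, and both elements were present in 27 (55.1%), against 6.58%. The E2F forms were found in 3 windows (6.12%), those of CDK1, KIF15 and NUSAP1, against 1.18% of all promoters. A match is a run of letters and not a measured binding site. Members with and without a match to these CHR forms had nearby medians of change in mRNA. The median log2 fold change after irradiation was -3.07 for the 34 tested members with such a match and -3.11 for the 14 without. After etoposide it was -3.70 and -3.33. Other forms were not searched, so members without a match are not shown to lack the element. The split therefore does not compare genes with and without a CHR.

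**Figure D1:**
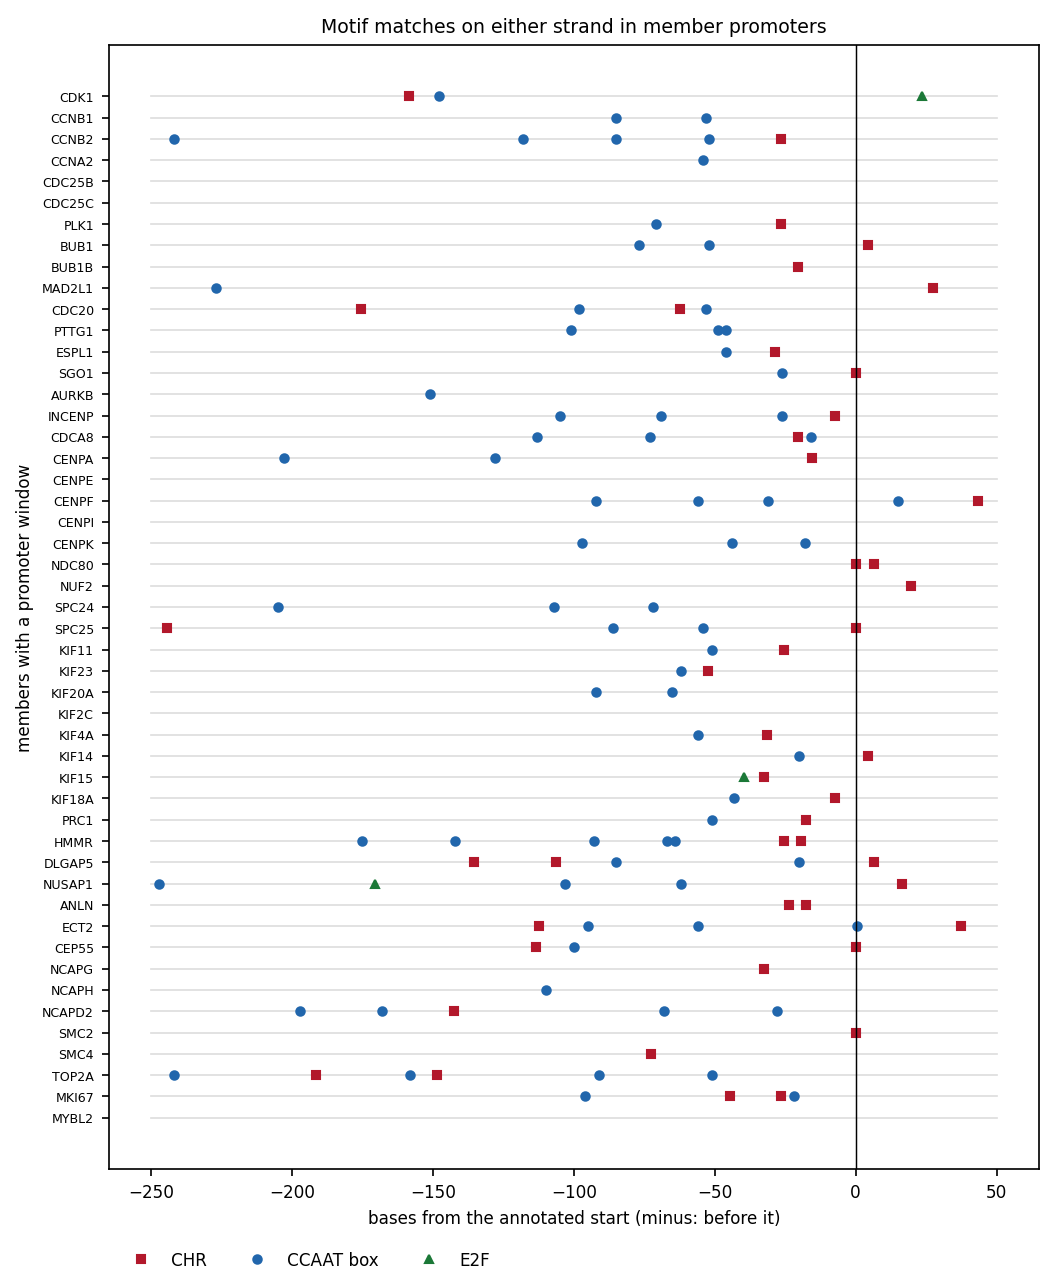
Position of CHR, CCAAT box and E2F matches in the promoter windows of 49 members, 1 row per gene, with the distance from the start of the gene in bases on the horizontal axis. Of the 49 windows, 35 held a CHR, 35 a CCAAT box and 3 an E2F match.

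In units of 1000000 counts in genes, RNA-seq libraries held 20.6 to 57.1 and Ribo-seq libraries 1.94 to 20.0, with the thapsigargin Ribo-seq libraries the shallowest. In the thapsigargin RNA-seq libraries 1.35% and 1.40% of reads did not map, against 27.9% to 40.6% in the others, and in the thapsigargin Ribo-seq libraries 65.2% and 66.9% of reads mapped to several places, against 19.8% to 31.9%. The 8 fibroblast markers examined were at 19.6 CPM (counts per 1000000, after TMM scaling) or more in every RNA-seq library, and no epithelial, endothelial or immune marker of those examined exceeded 2.53 CPM in RNA-seq or, in Ribo-seq, 2.61 CPM (VWF, an endothelial gene). As marks of arrest, CDKN1A, which encodes the CDK inhibitor p21, was at 775 and 824 CPM in the RNA of cycling cells, 1234, 1145 and 842 CPM in quiescence, 2448, 2863 and 2433 CPM after irradiation and 2865, 3182 and 3150 CPM after etoposide. LMNB1, which encodes lamin B1, was at 82.7 and 69.7 CPM in cycling cells, 30.8, 42.2 and 32.6 CPM in quiescence, 6.71, 6.26 and 6.68 CPM after irradiation and 4.61, 4.34 and 3.94 CPM after etoposide.

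Across cycling and arrested cells, members were highest in cycling cells, lower in quiescent cells and lowest in both senescent states. Expressed as a percentage of the cycling mean, the median member was at 35.6%, 53.2% and 42.1% in the 3 quiescent RNA-seq libraries. It was at 11.4%, 11.5% and 12.9% after irradiation and at 9.44%, 8.23% and 6.69% after etoposide. Ribo-seq gave 38.9%, 63.3% and 40.6% in quiescence, 10.4%, 10.8% and 12.3% after irradiation and 8.64%, 8.54% and 7.52% after etoposide. Replicate 2 of the quiescent state was the highest of its group in both assays. The means ran in the order cycling, quiescent, then both senescent states for 56 of 57 members in RNA-seq, with BUB3 the exception, and for all 57 tested in Ribo-seq. In bulk libraries such as these, fewer cells in mitosis and less RNA of these genes per cell cannot be told apart.

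**Figure D2:**
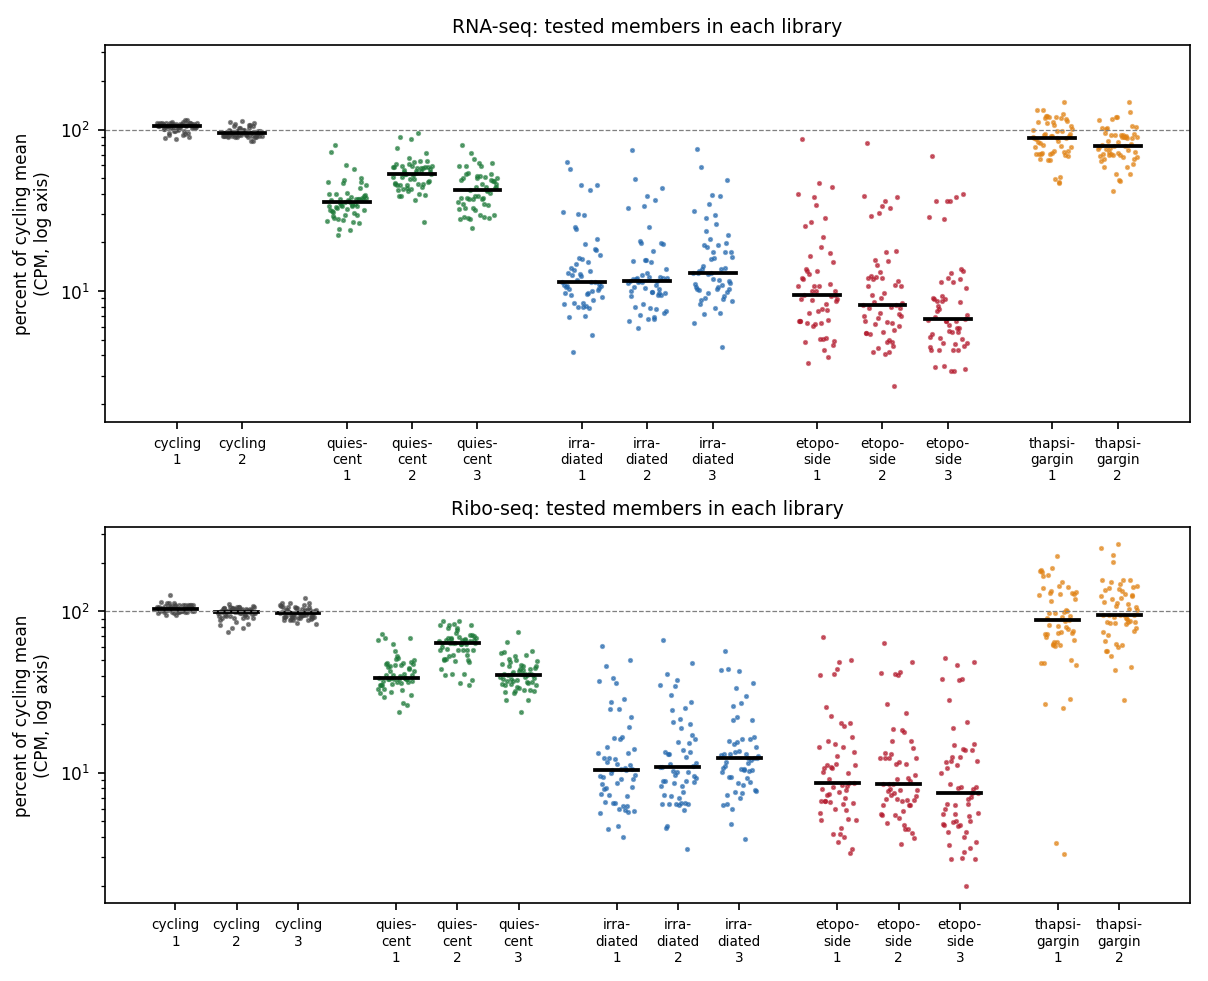
Level of the 57 tested members in each library as a percentage of the member's mean CPM in cycling cells, on a log axis, 1 point per member, with RNA-seq above and Ribo-seq below, a black bar at the median member and a dashed line at the cycling mean. The median member falls from cycling through quiescent to the senescent libraries, and PRC1 is not drawn in the 3 RNA-seq libraries where it is listed at 0.

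In edgeR's quasi-likelihood test, adjusted by the Benjamini-Hochberg method over all genes tested (13291 in RNA-seq and 11764 in Ribo-seq) and called under an adjusted p of 0.05, 49 of 57 members were lower in quiescent than in cycling cells in RNA and none was higher. The 8 not called were BUB3, CDC25B, CENPK, INCENP, KIF15, MKI67, PRC1 and SGO1. Of all genes, 15.6% were called in that comparison and 10.4% were lower. After irradiation 57 of 57 members were lower in RNA, where 34.9% of all genes were called and 18.8% were lower. After etoposide 56 of 57 were lower, with BUB3 not called, where 34.5% of all genes were called and 17.8% were lower. In Ribo-seq 56, 57 and 57 of 57 members were lower in quiescent, irradiated and etoposide-treated cells, where 21.7%, 39.8% and 34.0% of all genes were called and 14.6%, 22.6% and 17.6% were lower. The median log2 fold change of the members in RNA was -1.20, -3.06 and -3.63 in these states, or 2.30-fold, 8.34-fold and 12.4-fold lower, while the median over all genes tested was within 0.033 of 0 in each. In Ribo-seq the medians were -1.09, -3.21 and -3.58. All 3 comparisons share the cycling libraries, so they are set side by side and no relation between them is given. With 1 of the 2 cycling RNA-seq libraries left out, fewer quiescent calls were made, both among members and over all genes. Leaving out 1 library at a time, the median of the members in quiescent RNA stayed between -1.35 and -1.07.

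**Figure D3:**
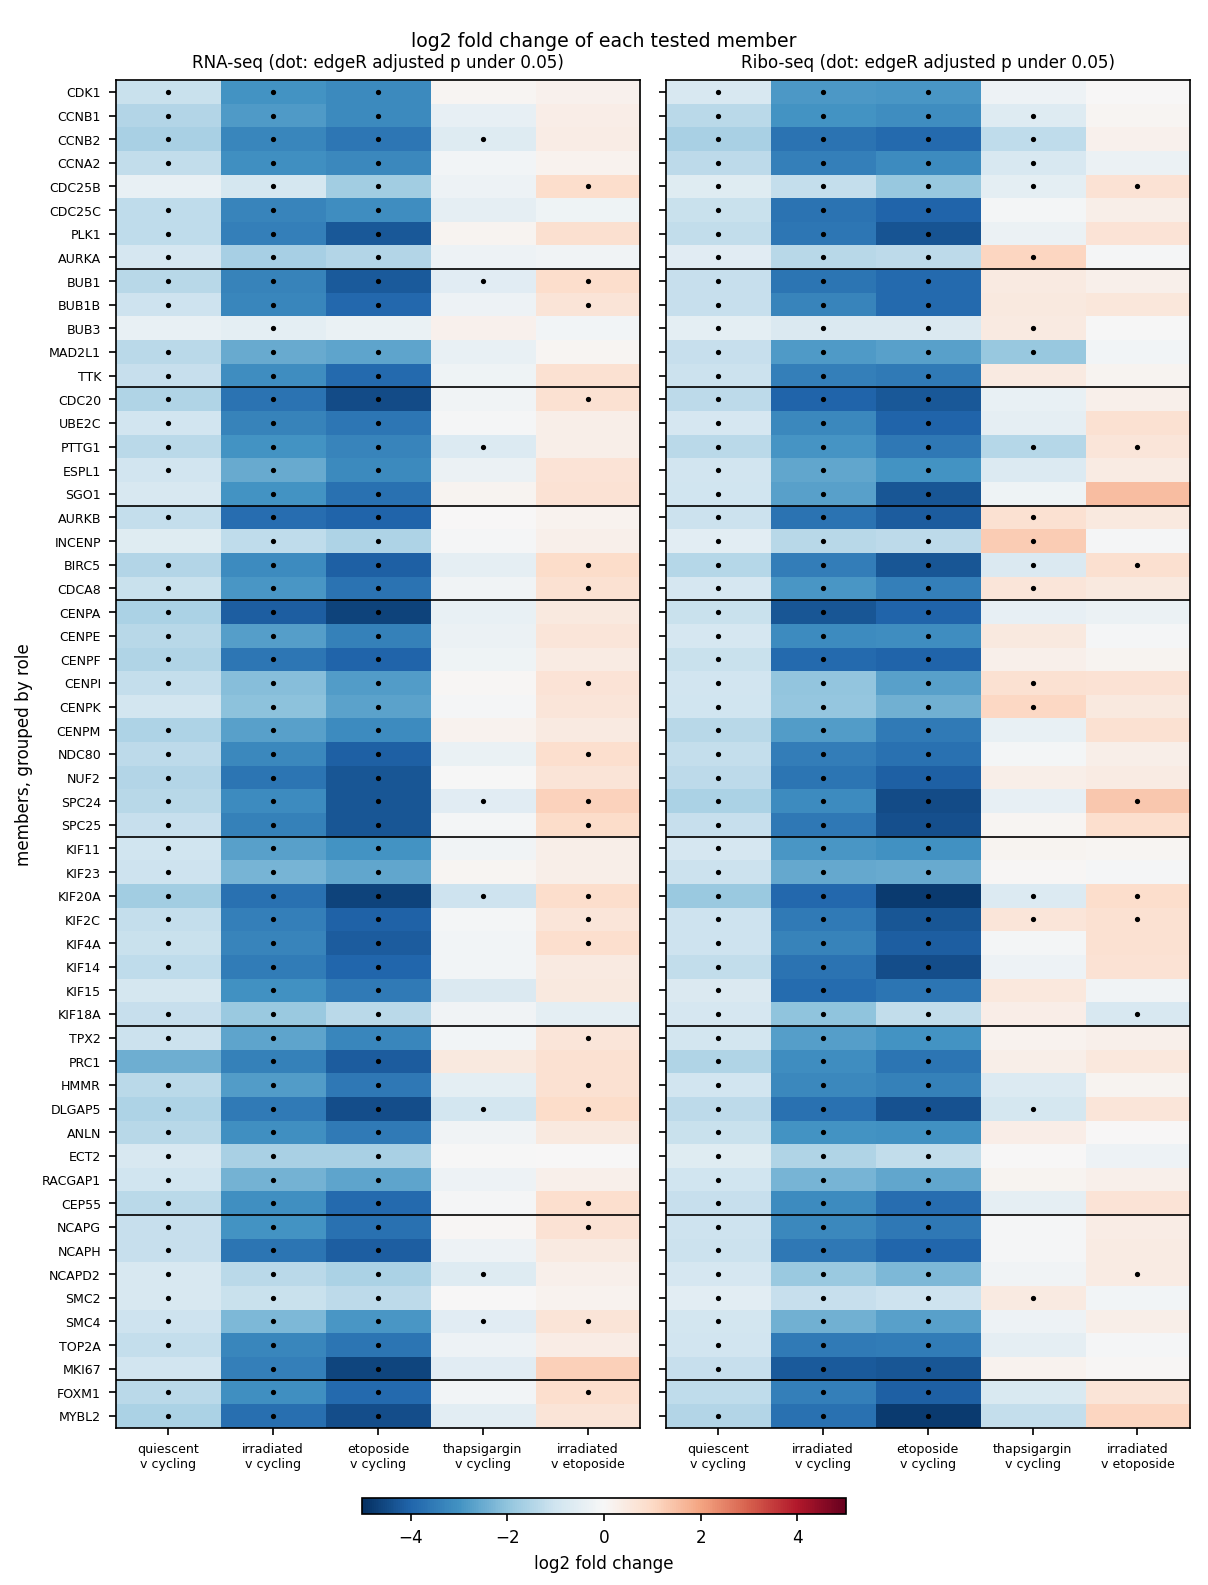
Log2 fold change of each tested member in RNA-seq and Ribo-seq in 5 comparisons, with members grouped by role, colours from -5 to 5, and a dot where edgeR's adjusted p was under 0.05. Both senescent states show dots for nearly all members, quiescent cells for most, and thapsigargin for few, lower in RNA-seq and in both directions in Ribo-seq.

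The kinases, cyclins and phosphatases that start mitosis had median RNA log2 fold changes of -1.25 in quiescence, -3.03 after irradiation and -3.18 after etoposide, each against cycling cells, with 7, 8 and 8 of 8 called lower. CDK1 (ENSG00000170312), the kinase itself, was at 68.0 and 60.9 CPM in the cycling RNA-seq libraries, 21.2, 32.7 and 34.8 CPM in the quiescent, 8.07, 7.31 and 9.24 CPM in the irradiated and 8.63, 7.70 and 5.18 CPM in the etoposide-treated. All quiescent libraries lay below the cycling ones and all senescent libraries below the quiescent ones, while the senescent states overlapped each other. On the log2 scale CDK1 changed by -1.12 ± 0.24 (SE; edgeR adjusted p = 0.00723), -2.97 ± 0.25 (adjusted p = 1.57e-06) and -3.17 ± 0.25 (adjusted p = 6.28e-07). Footprints of CDK1 were at 90.9, 89.3 and 88.0 CPM in cycling cells, 42.6, 70.1 and 41.0 CPM in quiescence, 12.8, 11.7 and 11.7 CPM after irradiation and 14.0, 11.1 and 10.6 CPM after etoposide. CCNB1 (ENSG00000134057), which encodes cyclin B1, fell in RNA from 205 and 173 CPM to 58.1, 79.9 and 65.8 CPM in quiescent, 24.6, 29.2 and 25.2 CPM in irradiated and 22.4, 22.7 and 16.9 CPM in etoposide-treated cells. In each step down from cycling to quiescent to senescent, every library lay below every library of the state before. PLK1 (ENSG00000166851), the polo-like kinase that acts at centrosomes and kinetochores, went from 42.1 and 46.8 CPM to 16.4, 25.5 and 12.6 CPM in quiescence, 3.90, 4.30 and 4.17 CPM after irradiation and 1.75, 2.57 and 2.64 CPM after etoposide. That was 10.8-fold lower after irradiation (edgeR adjusted p = 2.98e-06) and 19.0-fold lower after etoposide (adjusted p = 4.01e-07). Without cycling replicate 1 the quiescent RNA call of CDK1 was lost (edgeR adjusted p = 0.0731), and that of PLK1 was lost without either cycling library (adjusted p = 0.0533 to 0.0722). CDC25B (ENSG00000101224), a phosphatase that activates CDK1, moved less, from 101 and 126 CPM to 90.9, 102 and 67.4 CPM in quiescence, 65.2, 56.4 and 66.3 CPM after irradiation and 28.7, 33.4 and 41.2 CPM after etoposide. Its quiescent and cycling libraries overlapped, with a log2 fold change of -0.39 ± 0.21 that was not called (edgeR adjusted p = 0.25), while in Ribo-seq it was called lower, at -0.60 ± 0.08 (adjusted p = 0.000383).

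Of the spindle assembly checkpoint genes, 4, 5 and 4 of 5 were lower in RNA in quiescent, irradiated and etoposide-treated cells, with medians of -1.15, -3.12 and -3.88. BUB1B (ENSG00000156970), which encodes BubR1, an inhibitor of CDC20, fell from 47.5 and 42.0 CPM in cycling to 16.5, 27.5 and 21.9 CPM in quiescence, 4.78, 4.46 and 4.60 CPM after irradiation and 3.98, 2.48 and 2.43 CPM after etoposide. Its quiescent call was lost without cycling replicate 1 (edgeR adjusted p = 0.0709). Its annotation overlaps the read-through gene BUB1B-PAK6 on the same strand, so its counts may be incomplete. BUB3 (ENSG00000154473), the partner that brings BUB1 and BubR1 to the kinetochore, was the least changed member, at 206 and 182 CPM in cycling cells, 142, 150.0 and 155 CPM in quiescence, 121, 146 and 148 CPM after irradiation and 169, 160.2 and 132 CPM after etoposide. Every arrested library lay below both cycling ones, by a small margin. Its log2 fold changes were -0.38 ± 0.14 in quiescent (edgeR adjusted p = 0.0905), -0.49 ± 0.14 after irradiation (adjusted p = 0.0166) and -0.34 ± 0.14 after etoposide (adjusted p = 0.0856). The call after irradiation was lost without cycling replicate 1 or irradiated replicate 1, with adjusted p-values from 0.071 to 0.157. Footprints of BUB3 were lower in all 3 states, by -0.48 ± 0.15, -0.71 ± 0.15 and -0.71 ± 0.15 (edgeR adjusted p = 0.0335, 0.00223 and 0.00257). The quiescent footprint call was lost in 5 alternatives, 4 of them without 1 library (adjusted p = 0.0513 to 0.138). RefSeq lists a BUB3 pseudogene, and shared reads could lower the count.

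Genes that act at anaphase onset and in cohesion had medians of -0.96, -3.00 and -3.62 in RNA, with 4, 5 and 5 of 5 lower. CDC20 (ENSG00000117399), the activator of the anaphase-promoting complex, fell from 100.2 and 97.3 CPM in cycling to 28.2, 44.6 and 32.2 CPM in quiescent, 6.82, 7.86 and 8.18 CPM in irradiated and 4.75, 5.34 and 3.37 CPM in etoposide-treated cells. The 4 states did not overlap in RNA, and the log2 fold changes were -1.50 ± 0.20, -3.70 ± 0.21 and -4.46 ± 0.22 (edgeR adjusted p = 0.000606, 8.94e-08 and 1.12e-08). Its footprints went from 137, 127 and 137 CPM to 44.1, 67.4 and 49.7 CPM in quiescence, 8.78, 6.04 and 9.71 CPM after irradiation and 8.94, 6.54 and 5.73 CPM after etoposide. UBE2C (ENSG00000175063), the ubiquitin-conjugating enzyme of the same complex, fell from 79.9 and 66.7 CPM to 33.2, 43.8 and 36.6 CPM in quiescence, 6.71, 8.88 and 6.41 CPM after irradiation and 6.57, 6.20 and 5.21 CPM after etoposide. RefSeq lists pseudogenes of CDC20, UBE2C and PTTG1, so reads shared with them could be missing from the counts.

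The chromosomal passenger complex corrects faulty attachments and later acts in cytokinesis, and its 4 genes had medians of -1.17, -3.04 and -3.84, with 3, 4 and 4 lower. AURKB (ENSG00000178999), its kinase, fell from 37.2 and 31.2 CPM to 13.6, 19.9 and 11.1 CPM in quiescence, 2.84, 2.23 and 2.16 CPM after irradiation and 2.24, 2.39 and 1.78 CPM after etoposide. Its quiescent call was lost without cycling replicate 1 (edgeR adjusted p = 0.0501). BIRC5 (ENSG00000089685), which encodes survivin, fell from 175 and 157 CPM to 56.2, 76.6 and 46.5 CPM in quiescence, 18.1, 19.2 and 18.4 CPM after irradiation and 10.9, 10.8 and 7.50 CPM after etoposide. For BIRC5 the 4 states did not overlap, with etoposide below irradiation. INCENP (ENSG00000149503), the scaffold of the complex, moved less than both, from 26.9 and 34.5 CPM to 18.4, 26.7 and 15.4 CPM in quiescence, 13.9, 11.8 and 12.0 CPM after irradiation and 10.5, 10.4 and 11.0 CPM after etoposide. It was not called in quiescent RNA, at -0.60 ± 0.24 (edgeR adjusted p = 0.107), and was 2.44-fold and 2.88-fold lower in the senescent states.

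Centromere and kinetochore genes had medians of -1.39, -3.18 and -4.03, with 9, 10 and 10 of 10 lower. CENPA (ENSG00000115163), the histone H3 variant of centromeres, was at 25.9 and 24.4 CPM in cycling cells, 7.07, 10.7 and 7.10 CPM in quiescence, 1.06, 1.49 and 1.81 CPM after irradiation and 0.909, 1.06 and 1.08 CPM after etoposide. All senescent libraries lay below the quiescent ones, and the ranges of the senescent states overlapped at their edge. It had the lowest log2 fold change of any member in both, -4.11 ± 0.23 after irradiation (edgeR adjusted p = 8.94e-08) and -4.62 ± 0.24 after etoposide (adjusted p = 1.76e-08), or 17.3-fold and 24.6-fold lower. CENPF (ENSG00000117724), a large protein of the outer kinetochore, fell from 228 and 265 CPM to 60.2, 135 and 68.9 CPM in quiescence, 21.0, 17.6 and 22.2 CPM after irradiation and 18.1, 15.5 and 12.6 CPM after etoposide. NDC80 (ENSG00000080986), the subunit that grips the microtubule, fell from 33.2 and 28.0 CPM to 10.3, 13.6 and 12.7 CPM in quiescence, 3.07, 3.52 and 3.34 CPM after irradiation and 2.34, 1.48 and 1.70 CPM after etoposide. NDC80 was higher in all irradiated than in all etoposide-treated RNA-seq libraries.

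The mitotic kinesins, motors that build and pull apart the spindle, had medians of -1.13, -3.17 and -3.75, with 7, 8 and 8 of 8 lower. KIF20A (ENSG00000112984), which carries the passenger complex to the midzone, fell in RNA from 158 and 149 CPM to 36.8, 56.4 and 45.5 CPM in quiescence, 10.8, 12.0 and 12.0 CPM after irradiation and 7.76, 6.28 and 4.91 CPM after etoposide, with no overlap between the 4 states. Its footprints fell from 266, 284 and 256 CPM to 63.8, 96.8 and 63.9 CPM in quiescence, 16.1, 17.4 and 20.3 CPM after irradiation and 11.2, 9.81 and 7.98 CPM after etoposide, also without overlap. In footprints it had the lowest log2 fold change of any member in quiescent cells, -1.84 ± 0.15 (edgeR adjusted p = 2.59e-05), and after etoposide, -4.79 ± 0.19 (adjusted p = 4.33e-10). KIF11 (ENSG00000138160), the motor that separates the spindle poles, fell from 93.4 and 83.8 CPM to 36.0, 52.9 and 45.6 CPM in quiescence, 14.0, 11.5 and 15.4 CPM after irradiation and 11.8, 10.7 and 10.7 CPM after etoposide. KIF18A (ENSG00000121621), which damps chromosome oscillation, was at 51.8 and 48.3 CPM in cycling cells, 18.0, 24.6 and 25.7 CPM in quiescence, 14.8, 12.4 and 14.8 CPM after irradiation and 23.4, 18.1 and 18.0 CPM after etoposide. Its etoposide-treated libraries lay above the irradiated ones and overlapped the quiescent ones.

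Genes of spindle organisation and cytokinesis had medians of -1.37, -2.92 and -3.56, with 7, 8 and 8 of the 8 tested lower. ANLN (ENSG00000011426), the anillin of the cleavage furrow, fell from 247 and 206 CPM to 61.9, 114 and 80.7 CPM in quiescence, 26.0, 25.5 and 29.2 CPM after irradiation and 24.4, 18.6 and 15.0 CPM after etoposide. PRC1 and NUSAP1 had few RNA counts. PRC1 (ENSG00000198901), which bundles midzone microtubules, had 52 counts in the cycling RNA-seq libraries together, 16 in the quiescent ones, 8 after irradiation and 6 after etoposide, and was listed at 0 in 1 library of each arrested state. In Ribo-seq it had 396, 249, 16 and 17 counts, or 12.8, 10.3 and 13.8 CPM in cycling and 3.22, 4.33 and 5.43 CPM in quiescent libraries. PRC1 was lower in all 3 states in Ribo-seq, while in quiescent RNA its log2 fold change of -2.45 ± 0.78 was not called (edgeR adjusted p = 0.0506). An antisense gene, PRC1-AS1, overlaps it. NUSAP1 had at most 13 counts in any RNA-seq library and 1 count in all Ribo-seq libraries together, so no change could be tested. Why both genes had few RNA counts was not tested.

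Genes of chromosome condensation had medians of -1.05, -2.98 and -3.64, with 6, 7 and 7 of 7 lower. TOP2A (ENSG00000131747), the topoisomerase that untangles sister DNA, fell from 275 and 253 CPM to 84.0, 144 and 115 CPM in quiescence, 27.7, 25.8 and 29.6 CPM after irradiation and 25.1, 20.9 and 17.7 CPM after etoposide. It is also the enzyme that etoposide poisons. Its irradiated RNA-seq libraries lay above its etoposide-treated ones, a difference that was not called in RNA or in Ribo-seq. The median over all members differed the same way. Within condensin I, SMC4 (ENSG00000113810) fell from 169 and 162 CPM to 62.5, 97.3 and 80.0 CPM in quiescence, 34.9, 32.3 and 36.9 CPM after irradiation and 25.0, 19.1 and 22.0 CPM after etoposide. NCAPD2 (ENSG00000010292), another condensin I subunit, fell by less, from 143 and 162 CPM to 86.6, 97.9 and 77.3 CPM in quiescence, 64.1, 56.1 and 59.2 CPM after irradiation and 43.4, 50.0 and 58.3 CPM after etoposide. The quiescent call of NCAPD2 was lost without cycling replicate 2 (edgeR adjusted p = 0.0798). MKI67 (ENSG00000148773), which encodes Ki-67, the coat protein of mitotic chromosomes, was at 144 and 167 CPM in cycling cells, 41.3, 148 and 53.4 CPM in quiescence, 15.2, 10.5 and 18.2 CPM after irradiation and 7.79, 6.52 and 4.99 CPM after etoposide. Quiescent replicate 2 lay within the cycling range and the other quiescent libraries far below it. In quiescent RNA MKI67 was not called, at -0.94 ± 0.43 (edgeR adjusted p = 0.17), and without that library it was (adjusted p = 0.00347). In Ribo-seq it was called with all libraries, at -1.14 ± 0.22 (edgeR adjusted p = 0.00278).

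The transcription factors that drive the programme fell with it. FOXM1 (ENSG00000111206) mRNA went from 143 and 148 CPM in cycling to 51.6, 71.5 and 46.2 CPM in quiescence, 18.5, 15.2 and 18.8 CPM after irradiation and 9.02, 10.6 and 9.47 CPM after etoposide. MYBL2 (ENSG00000101057), which encodes B-Myb, went from 49.2 and 51.0 CPM to 15.3, 19.9 and 14.4 CPM in quiescence, 3.94, 3.44 and 3.65 CPM after irradiation and 2.17, 2.48 and 2.35 CPM after etoposide. For both genes the 4 states did not overlap in RNA, and the log2 fold changes of MYBL2 were -1.60 ± 0.22, -3.76 ± 0.24 and -4.42 ± 0.24 (edgeR adjusted p = 0.000781, 1.40e-07 and 2.69e-08). Footprints of FOXM1 were at 28.6, 29.1 and 30.9 CPM in cycling and 11.3, 14.5 and 11.1 CPM in quiescent libraries, which do not overlap, yet it was the 1 member not called in quiescent Ribo-seq (log2 fold change -1.26 ± 0.46; edgeR adjusted p = 0.0681). Its 2 thapsigargin libraries, which enter the shared estimate of spread, were at 1.09 and 33.4 CPM, and with these libraries left out of the fit FOXM1 was called.

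**Figure D4:**
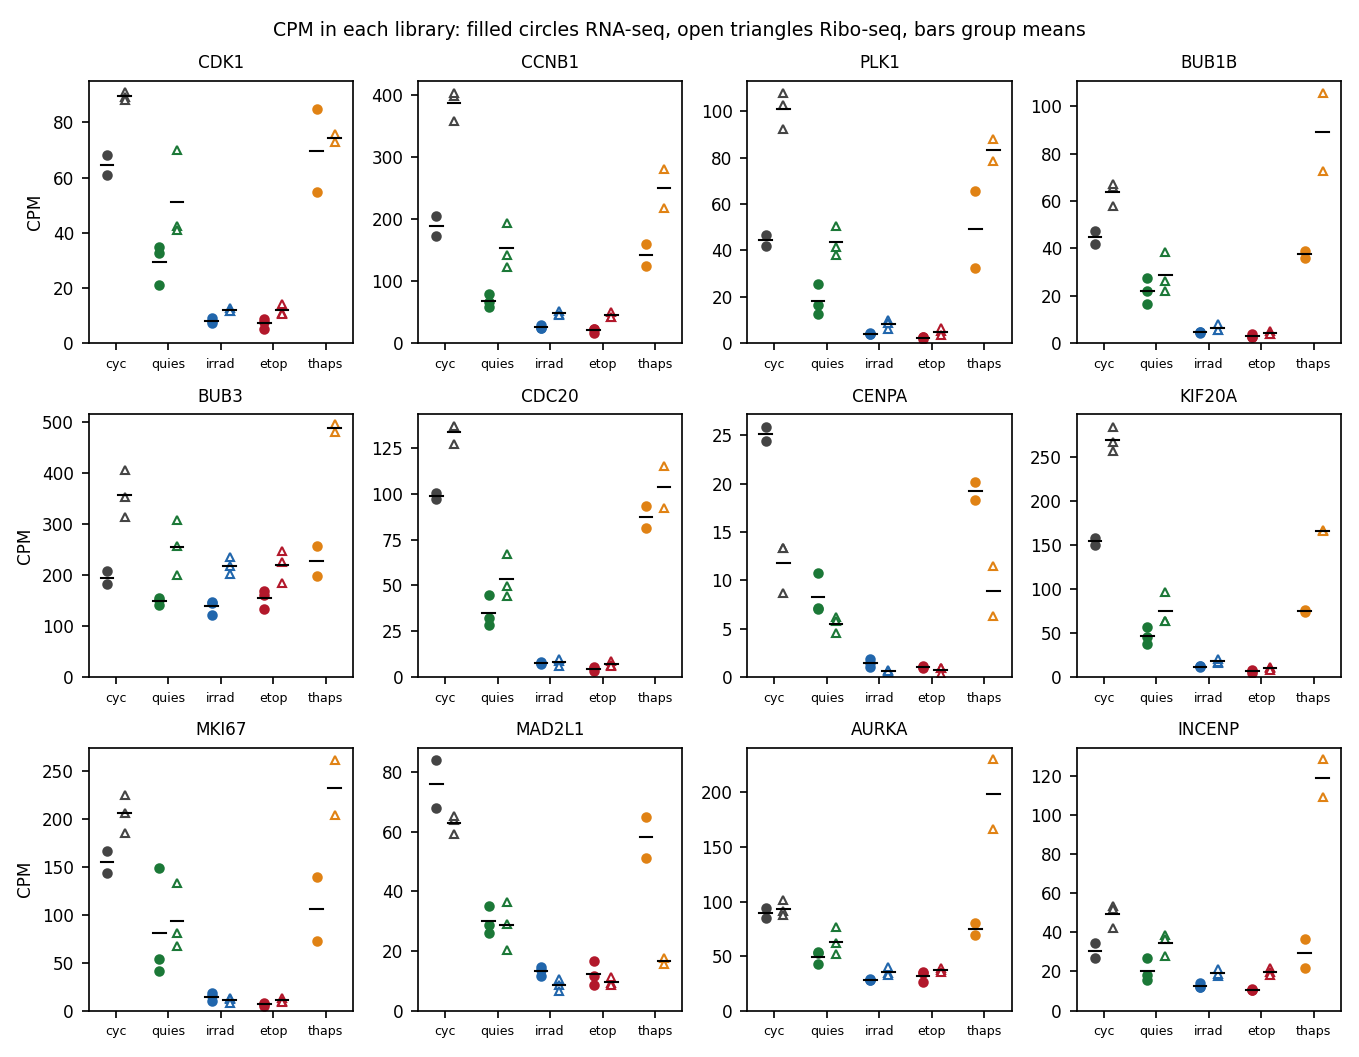
CPM of 12 members in every library of the 5 states, with filled circles for RNA-seq, open triangles for Ribo-seq and bars at the means. CDK1, CCNB1, PLK1, CDC20, CENPA and KIF20A step down from cycling through quiescent to senescent libraries. BUB3 mRNA stays within a narrow range, while BUB3 footprints were called lower in each arrested state.

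A small group of members differed less from cycling cells than the rest. After irradiation 49 of 57 members were at least 4-fold lower in RNA and 33 at least 8-fold, and after etoposide 49 and 42. The 8 below 4-fold after irradiation, named after their values were seen, were AURKA, BUB3, CDC25B, ECT2, INCENP, KIF18A, NCAPD2 and SMC2. AURKA, the kinase of spindle poles, was at 93.7 and 85.1 CPM in cycling and 42.6, 52.6 and 53.4 CPM in quiescence, 27.8, 29.2 and 28.1 CPM after irradiation and 35.9, 34.5 and 25.9 CPM after etoposide. ECT2, the exchange factor that activates RhoA for cytokinesis, was at 116 and 99.1 CPM in cycling cells, 49.9, 65.3 and 70.7 CPM in quiescence, 32.3, 36.2 and 37.1 CPM after irradiation and 40.8, 32.7 and 30.0 CPM after etoposide. SMC2, the ATPase that pairs with SMC4, was at 62.5 and 53.5 CPM in cycling cells, 27.4, 36.8 and 36.1 CPM in quiescence, 26.2, 25.2 and 28.4 CPM after irradiation and 25.6, 22.3 and 23.3 CPM after etoposide. Partners of one complex had fold changes of different size, a difference that was not tested. After etoposide SMC4 was 7.53-fold and SMC2 2.45-fold lower, AURKB 16.1-fold and INCENP 2.88-fold, and BUB1B 15.2-fold and BUB3 1.26-fold lower, the last not called. RefSeq lists pseudogenes of AURKA, and shared reads could be missing from its counts.

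Quiescent cells, which the labels call contact-inhibited, had more of these transcripts than senescent cells did. Whether some of the quiescent cells still cycled was not tested. Against quiescent cells, 53 of 57 members were lower in irradiated cells in RNA, where 18.7% of all genes were called and 9.71% were lower, with a median log2 fold change of -1.76. Against the same libraries, 54 of 57 were lower after etoposide, where 41.7% of all genes were called and 20.6% were lower, with a median of -2.43. None was higher in either. In Ribo-seq 56 and 55 of 57 were lower, with medians of -2.08 and -2.52, where 14.5% and 35.3% of all genes were called and 7.62% and 16.1% were lower. In RNA the lowest values after irradiation were AURKB (-2.62 ± 0.23), CENPA (-2.51 ± 0.22) and NCAPH (-2.50 ± 0.26), the last a condensin I subunit. After etoposide they were MKI67 (-3.66 ± 0.45), SPC25 (-3.12 ± 0.26), a subunit of the NDC80 complex, and KIF4A (-3.04 ± 0.23), a chromokinesin. All 6 were called by edgeR, with adjusted p-values of 7.65e-06 for AURKB, 7.38e-06 for CENPA, 2.42e-05 for NCAPH, 3.45e-05 for MKI67, 1.37e-06 for SPC25 and 7.03e-07 for KIF4A. BUB3, CDC25B, PRC1 and SMC2 were not called after irradiation in RNA, nor were BUB3, KIF18A and PRC1 after etoposide. KIF18A was at -0.20 ± 0.18 after etoposide relative to quiescent cells (edgeR adjusted p = 0.406).

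Quiescent replicate 2 had the highest median level of its group in both assays. Without it the median in quiescent against cycling cells moved from -1.20 to -1.35 in RNA and from -1.09 to -1.31 in Ribo-seq. The median after irradiation against quiescent cells moved to -1.59 in RNA and -1.87 in Ribo-seq, and that after etoposide to -2.11 and -2.22. Without quiescent replicate 1 the medians against cycling cells moved the other way, to -1.07 in RNA and -0.95 in Ribo-seq, and that after etoposide against quiescent cells to -2.59 and -2.62. Quiescent replicate 1 was the lowest of its group in COL1A1, a fibroblast collagen, at 773 against 1669 and 1485 CPM in RNA and 3756 against 8954 and 12030 CPM in Ribo-seq, and the part of this in the result was not tested. Without replicate 2 INCENP was called lower in quiescent RNA (edgeR adjusted p = 0.0241), as was MKI67.

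The inducers of senescence were compared directly, irradiated against etoposide-treated cells, in libraries that share no control. Members were higher after irradiation where they differed in RNA. Of 57, 20 were called higher and none lower, where 22.6% of all genes were called, 9.68% higher and 12.9% lower, and the median log2 fold change was 0.62 against 0.061 over all genes. The 20 came from all 9 roles, with 4 of the centromere and kinetochore genes and 4 of spindle organisation and cytokinesis. SPC24, a subunit of the NDC80 complex, was at 6.41, 7.58 and 7.35 CPM after irradiation and 2.94, 3.83 and 2.91 CPM after etoposide, without overlap, a difference of 1.14 ± 0.18 (edgeR adjusted p = 0.000811). BIRC5 had 0.93 ± 0.18 (adjusted p = 0.00271), KIF20A 0.89 ± 0.18 (adjusted p = 0.00298) and CDC20 0.77 ± 0.20 (adjusted p = 0.013). MKI67 had the highest value, 1.19 ± 0.42, and was not called (edgeR adjusted p = 0.0607), although its irradiated libraries all lay above its etoposide-treated ones. The lowest values were those of KIF18A (-0.50), CDC25C (-0.20), a CDK1-activating phosphatase, and AURKA (-0.18), none called in RNA.

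Ribo-seq showed fewer such differences, with 7 members higher and 1 lower after irradiation, where 21.7% of all genes were called, 7.77% higher and 13.9% lower, and a median of 0.30. BIRC5, CDC25B, KIF20A, KIF2C and SPC24 were called higher in both assays, and KIF2C encodes a kinesin that depolymerises microtubules. The Ribo-seq call of BIRC5 was lost in 8 alternatives, among them the replicate block and the fits without irradiated replicate 1 or 3 or any 1 etoposide library (edgeR adjusted p = 0.0515 to 0.161). That of KIF2C was lost in 6, among them the fits without any 1 irradiated library or etoposide replicate 1 or 3 (adjusted p = 0.0604 to 0.144). Footprints of SPC24 were at 4.39, 4.53 and 5.14 CPM after irradiation and 1.40, 2.80 and 1.22 CPM after etoposide. The highest value was that of SGO1, the protector of centromeric cohesion, at 1.54 ± 0.66 and not called (edgeR adjusted p = 0.119). KIF18A was the member called lower after irradiation, at 14.4, 12.5 and 15.7 CPM against 28.4, 24.6 and 22.2 CPM after etoposide, without overlap, a difference of -0.81 ± 0.18 on the log2 scale (edgeR adjusted p = 0.00634). The RNA count of 20 moved to 7 without irradiated replicate 3, 12 without etoposide replicate 2 and 8 without etoposide replicate 3. The Ribo-seq count of 8 moved to 5 without irradiated replicate 1 or 3 and to 4 without etoposide replicate 1 or 3, with KIF18A lower in each.

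Footprints and mRNA of the members were lower together in the arrested states. Translational efficiency, the ratio of footprints to mRNA of a gene, was tested as the interaction of assay and state over all 27 libraries and 11713 genes. edgeR called none of 57 members in quiescent, irradiated or etoposide-treated against cycling cells, where 0%, 0.0256% and 0.0683% of all genes were called. At an unadjusted p under 0.05 there were 0, 1 and 2 members, and DESeq2 also called 0, 0 and 0. No share over all genes is set beside these counts. Since edgeR called almost no gene in these states, the lack of calls does not set the members apart from other genes. The medians were 0.15, -0.16 and 0.07 on the log2 scale. The quiescent median was -0.06 without quiescent Ribo-seq replicate 2, and the etoposide median was -0.06 without etoposide RNA-seq replicate 3 and -0.05 without cycling RNA-seq replicate 1 or etoposide Ribo-seq replicate 1. The member with the smallest p in both senescent states was NCAPD2, at -0.47 ± 0.22 after irradiation (edgeR adjusted p = 0.803) and -0.65 ± 0.22 after etoposide (adjusted p = 0.764). Outside the thapsigargin state every such ratio crosses 2 gene lists, of 62703 identifiers in RNA-seq and 60664 in Ribo-seq.

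**Figure D5:**
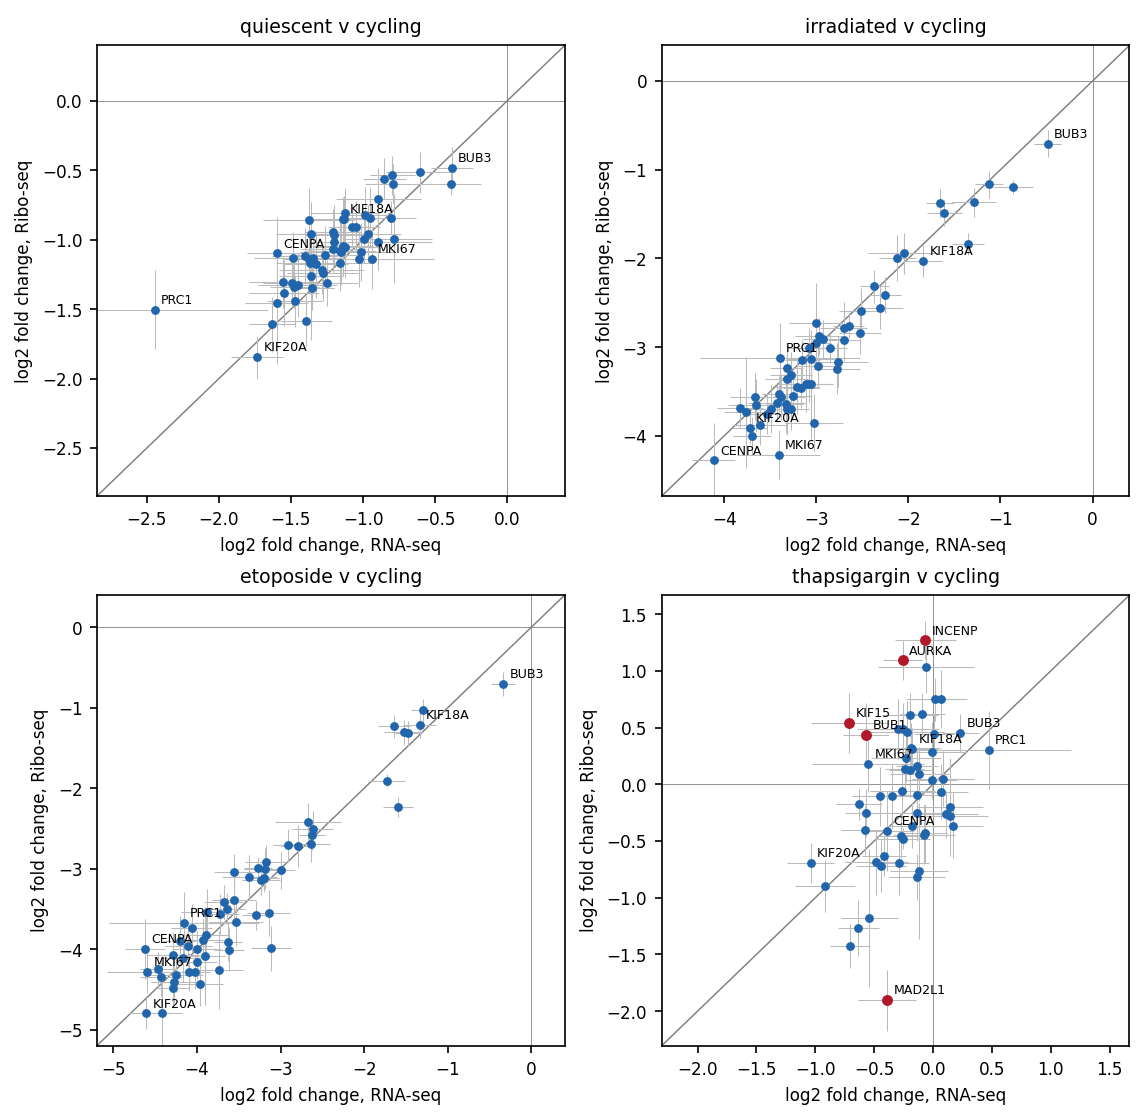
Log2 fold change in Ribo-seq against that in RNA-seq for the 57 tested members, 1 panel per state against cycling cells, with grey bars for the SE, a diagonal for equal change and red for members called for translational efficiency. Points in the arrested states scatter about the diagonal with none in red, and 5 are red under thapsigargin.

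In cycling cells treated with thapsigargin for 3 h, the median member was at 88.8% and 79.4% of the cycling mean in the 2 RNA-seq libraries. Of 57 members, 8 were called lower and none higher (14.0%), a share below the 24.5% of all genes called and near the 12.8% called lower, with 11.7% called higher. KIF20A had the lowest value, at 76.0 and 73.7 CPM against 158 and 149 CPM in cycling libraries, without overlap, a change of -1.04 ± 0.20 on the log2 scale (edgeR adjusted p = 0.00235). DLGAP5, a spindle protein, followed at 57.8 and 36.9 against 91.6 and 86.8 CPM, a change of -0.92 ± 0.26 (edgeR adjusted p = 0.0193), and then KIF15, a spindle motor, at -0.71 ± 0.33, which was not called (adjusted p = 0.134). The highest values were PRC1 (0.47), BUB3 (0.23) and CENPM (0.17), a centromere protein, none called. The count of 8 moved to 1 when only these 2 states were fitted, where 1507 of 12766 genes tested were called. It also fell without cycling replicate 1, cycling replicate 2 or thapsigargin replicate 2, fits that leave 1 library in a group. In each of the fits without a library or on these states alone, KIF20A kept its call, and DLGAP5 lost its call in 4 of them (edgeR adjusted p = 0.0622 to 0.142).

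In footprints the same treatment gave values on both sides. Ribo-seq called 9 members lower and 9 higher (31.6% together), where 44.4% of all genes were called, 24.4% lower and 20.0% higher, so the share was below that of all genes. The median over members was -0.09, and over all genes -0.108. Of the kinases, cyclins and phosphatases 4 were lower and 1 higher, and of the 4 passenger complex genes 3 were higher and 1 lower. The lower passenger gene, BIRC5, lost its call when only these 2 states were fitted and without cycling Ribo-seq replicate 1 or 3. It also lost it without thapsigargin Ribo-seq replicate 1. CCNA2, CCNB1 and DLGAP5, also lower, kept their calls in all but 1 alternative, which left 1 thapsigargin library. MAD2L1, which encodes the checkpoint protein MAD2, had the lowest value, with 15.8 and 17.7 CPM under thapsigargin against 63.8, 65.3 and 59.4 CPM in cycling libraries. The groups were far apart, at -1.90 ± 0.27 on the log2 scale (edgeR adjusted p = 0.000106), while its mRNA was at 65.1 and 51.1 against 84.3 and 67.9 CPM and was not called. PTTG1, which encodes securin, the inhibitor of separase, was at 62.1 and 98.6 against 213, 217 and 220.3 CPM (-1.43 ± 0.19; edgeR adjusted p = 7.90e-05). CCNB2, cyclin B2, was at 38.1 and 80.9 against 145, 150.0 and 135 CPM (-1.26 ± 0.25; adjusted p = 0.00117). CCNB2, DLGAP5, KIF20A and PTTG1 were the members called lower in both assays.

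Footprints rose most for INCENP, AURKA and CENPK. INCENP was at 109 and 128 CPM under thapsigargin against 53.7, 42.5 and 51.9 CPM in cycling libraries (1.27 ± 0.17; edgeR adjusted p = 6.33e-05). AURKA was at 167 and 231 against 91.2, 87.4 and 101 CPM (1.09 ± 0.17; edgeR adjusted p = 0.000209), and its mRNA, at 80.2 and 69.4 against 93.7 and 85.1 CPM, was not called. CENPK, of the inner kinetochore, had 1.03 ± 0.23 (edgeR adjusted p = 0.00285). The others called higher were AURKB, BUB3, CDCA8, CENPI, KIF2C and SMC2, of which AURKB and the passenger subunit CDCA8 belong with INCENP. AURKB was at 107 and 91.3 against 61.6, 52.0 and 63.3 CPM, a change of 0.75 ± 0.19 (edgeR adjusted p = 0.00666). Leaving out 1 library or another setting ended the call of SMC2 in 7 alternatives (edgeR adjusted p = 0.0554 to 0.123), BUB3 in 5 (0.0736 to 0.154), CENPI in 4 (0.0512 to 0.251), CDCA8 in 3 (0.0589 to 0.133) and AURKB in 1, without thapsigargin replicate 1 (0.0508). The call of SMC2 was lost without any 1 of the cycling or thapsigargin Ribo-seq libraries. The 2 thapsigargin Ribo-seq libraries differed strongly for FOXM1, at 1.09 and 33.4 CPM, and for MYBL2, at 0.545 and 14.6 CPM, where the first library held 2 and 1 counts. Neither was called with both libraries, and both were called lower without thapsigargin Ribo-seq replicate 2, with edgeR adjusted p-values of 6.86e-05 and 0.000663.

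In translational efficiency 5 members were called under thapsigargin (8.77%), 4 higher and 1 lower, where 20.8% of all genes were called, 9.46% higher and 11.3% lower. AURKA (1.38 ± 0.25; edgeR adjusted p = 0.000465), INCENP (1.36 ± 0.32; adjusted p = 0.00378), KIF15 (1.28 ± 0.44; adjusted p = 0.04) and BUB1 (1.04 ± 0.36; adjusted p = 0.0443) were higher. MAD2L1 was lower, at -1.48 ± 0.39 (edgeR adjusted p = 0.00864). AURKA, INCENP and MAD2L1 kept their calls in every alternative run, and BUB1 and KIF15 lost theirs in 11 and 9 of them. The count of 5 was 3 without either cycling RNA-seq library, any 1 of the cycling Ribo-seq libraries or thapsigargin Ribo-seq replicate 1, and 11 without thapsigargin Ribo-seq replicate 2. KIF15 overlaps the gene TMEM42 on its strand, so its counts may be incomplete. Medium, mapping shares, Ribo-seq depth and, in Ribo-seq, the gene list differ between the thapsigargin and cycling libraries, and the treatment cannot be told apart from them.

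Other genes of mitosis had smaller median changes. Over all genes tested in RNA, 10.4%, 18.8% and 17.8% were called lower in quiescent, irradiated and etoposide-treated cells. In either direction 15.6%, 34.9% and 34.5% were called. A list of 79 further genes, all tested in RNA, held 24 lower and none higher in quiescent, 40 lower and 3 higher in irradiated and 48 lower and 2 higher in etoposide-treated cells, with medians of -0.23, -0.47 and -0.68. Kinetochore proteins outside the members had the lowest medians of these lists, with 13, 18 and 21 of 27 lower and medians of -0.59, -1.26 and -1.25. KNL1, which docks BUB1 at the kinetochore, had the lowest value of these after irradiation (-3.38 ± 0.28; edgeR adjusted p = 1.25e-06), and CENPT, which links the inner to the outer kinetochore, the highest (0.12 ± 0.17; adjusted p = 0.621). Of 14 further kinases and phosphatases 6, 9 and 10 were lower, with NEK2, a centrosome kinase, lowest after irradiation at -3.67 ± 0.26 (edgeR adjusted p = 3.10e-07).

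Subunits of the anaphase-promoting complex, which CDC20 activates, had medians near 0. Of 15, none was called in quiescent cells, and 2 were lower and 2 higher in each senescent state, with medians of 0.01, 0.01 and -0.01. Of all genes, 34.9% were called after irradiation and 34.5% after etoposide, so the share of these subunits called was below that of all genes. ANAPC13 had the highest value in both senescent states, 0.56 ± 0.11 after irradiation and 0.53 ± 0.11 after etoposide (edgeR adjusted p = 0.00177 and 0.00281). Of 9 cohesin subunits and regulators 2, 4 and 6 were lower, with CDCA5, which encodes sororin, lowest in each state. The 3 condensin II genes had medians of -0.51, -0.82 and -1.10, with 2, 3 and 3 lower, and NCAPG2 lowest. Of 11 subunits of DREAM and MuvB 1, 4 and 6 were lower, the first a share near that of all genes (10.4%), and 0, 1 and 0 higher, with medians of -0.13, -0.25 and -0.41. RBL1, which encodes the pocket protein p107, was lowest in both senescent states, at -1.44 ± 0.20 and -1.74 ± 0.20 (edgeR adjusted p = 0.000118 and 2.25e-05). Under thapsigargin 9 of the 79 were lower and 3 higher in RNA, where 12.8% of all genes were lower and 11.7% higher, so the share lower was near that of all genes.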

How the data were processed

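The authors deposited raw counts of reads per gene for each library, unnormalised, with counts for both strands and for each strand. The submitters' processing notes name STAR 2.7.10b, hg38, bcl2fastq and DESeq2 1.36.0, and the annotation is not given in the sources used here. RNA-seq and thapsigargin Ribo-seq counts list 62703 identifiers and the other Ribo-seq counts 60664, and the 60534 shared ones were used. The strand that the kit reads was used, reverse in RNA-seq and forward in Ribo-seq. The opposite strand held 3.56% to 10.7% of counts. Lines naming no gene (unmapped reads, 1.35% to 40.6%, multimapping reads, 9.43% to 66.9%, and reads outside or shared between genes) were left out.

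Protein coding genes passing edgeR's filterByExpr were fitted with edgeR 4.0.16 (R 4.3.3), all 5 states together, with TMM scaling and two-sided quasi-likelihood tests after checks on simulated data. Symbols were matched by Ensembl identifier, and biotypes came from RefSeq (GRCh38.p14). CPM are per 1000000 counts after TMM scaling. No transcript lengths were used, so levels are not compared between genes. Scaling sets the average change of genes near 0. Genes with values were named by a rule: fixed members of each role, the 3 lowest and highest per comparison, and every call in translational efficiency. The lowest or highest genes of the other lists, and the members under 4-fold, were chosen after their values were seen. The members and lists were chosen with earlier results of these data known. The alternatives were DESeq2 1.42.0, no filter, all biotypes, unstranded counts, fitting only the compared states, leaving out thapsigargin or single libraries, a replicate block and joint TMM scaling. Same-numbered libraries deviated from their group means together in cycling with quiescent Ribo-seq (0.18 to 0.32) and quiescent with irradiated Ribo-seq (0.10 to 0.19). Every correlation of these 3 pairs each was over 0.1, so the numbers may pair the libraries there. Differently numbered libraries were not compared across states. The block changed no member's call in either comparison. Cycling with thapsigargin RNA-seq had 2 pairs, both at 0.35, and there the block ended the calls of BUB1 and SMC4. In RNA-seq with Ribo-seq of etoposide-treated cells the correlations were 0.14 to 0.44, and the block changed no call in translational efficiency there.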

Additional observations from a re-analysis of the deposited data

How the results depend on the processing

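Not every member was followed through the alternatives. Those followed were the fixed members of each role and the 3 lowest and highest per comparison. All calls under thapsigargin, between the inducers and in translational efficiency were followed too. Among these, no called change was reversed in any alternative run. Leaving out 1 library at a time, the count of members called in RNA-seq ranged from 33 to 52 in quiescent, 56 to 57 in irradiated, 56 to 56 in etoposide-treated and 1 to 7 in thapsigargin-treated against cycling cells. It ranged from 49 to 54 and 53 to 54 in irradiated and etoposide-treated against quiescent cells, and from 7 to 19 in irradiated against etoposide-treated cells. In Ribo-seq the ranges were 49 to 55, 57 to 57, 57 to 57, 12 to 18, 50 to 56, 54 to 57 and 4 to 7, in the same order. In translational efficiency they were 0 to 0 in each arrested state and 3 to 11 under thapsigargin. Fitting only the compared states left 1 member called in thapsigargin RNA, where 1507 of 12766 genes tested were called. With all states fitted it was 3256 of 13291, and the cause was not tested. The lowest quiescent and thapsigargin RNA counts above came from fits with 1 cycling library, where fewer genes were called over all genes too. Without quiescent replicate 2 the median log2 fold changes moved to -2.11 (etoposide against quiescent, RNA), -1.31 (quiescent against cycling, Ribo-seq) and -2.22 (etoposide against quiescent, Ribo-seq). Irradiated against etoposide-treated cells gave 17 to 25 members in RNA and 6 to 12 in Ribo-seq under the other alternatives. Of same-numbered libraries across states, 18 of 49 pairs had deviations correlated over 0.1 (-0.36 to 0.68). Differently numbered libraries were not compared across states, so this does not settle whether the numbers pair the samples. Within states, 6 of 9 RNA-seq libraries correlated best with the Ribo-seq library of their own number. With the replicate number as a block the counts were 49, 57, 56, 6, 53, 54 and 21 in RNA-seq, 56, 57, 57, 19, 56, 55 and 8 in Ribo-seq, and 0, 0, 0 and 7 in translational efficiency, and no count moved by over 1.5 times. The block ended the calls of BUB1B, HMMR and SPC25 in RNA and BIRC5 in Ribo-seq (irradiated against etoposide-treated), and of BUB1 and SMC4 in RNA and SMC2 in Ribo-seq (thapsigargin). Depth was lowest in the thapsigargin Ribo-seq libraries. Few counts limit NUSAP1 and PRC1 in RNA, and FOXM1 and MYBL2 in thapsigargin Ribo-seq replicate 1, whose depth was close to that of replicate 2, and the cause was not tested.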
